A study of Homo sapiens with 12 samples.

Results

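The 45 proteins of the large ribosomal subunit, RPL3 to RPLP2, were followed through a ribosome density gradient in U87MG cells, a human glioblastoma line. A member was found as an assembled locus whose deposited gene name holds its symbol as a whole item, and 43 of the 45 had a locus among the 12197 that were compared, of 55598 in all. A compared locus had a mean level of at least 1 FPKM (fragments per kilobase of transcript, corrected for library size) over the 12 libraries, and small RNA loci were left out. RPL7A, on 2 loci, averaged 0.0077 FPKM, and RPL36A, on 2 loci, was listed at 0 in each of the 12 libraries. Those listings are not read as absence, since a 0 in such a table can be a failed estimate.

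Cells were kept for 24 hours in 1 of 4 conditions before lysis: hypoxia with acidosis (1% oxygen, pH 6.0), hypoxia at pH 7.4 (1% oxygen), normoxia with acidosis (pH 6.0) and normoxia at pH 7.4, whose oxygen percentage is not given in the sources used here. RNA was sequenced from 3 gradient fractions of each condition, called monosome (free mRNA and mRNA with a single ribosome), oligosome and polysome. There is 1 library per condition and fraction, 12 in all. Without replicates the differences below are sizes only, given with no test and no p-value. Among glial and glioma markers, VIM (vimentin) averaged 5979 FPKM and CD44 658 FPKM, while the astroglial markers GFAP, S100B and AQP4 averaged 0.21, 0.0133 and 0 FPKM.

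Large-subunit proteins wrap the ribosomal RNA that forms peptide bonds, line the tunnel through which the new protein leaves, and build the stalk that recruits translation factors. Their mRNAs are among the most abundant in growing cells and most begin with a cytosine followed by a run of pyrimidines, the terminal oligopyrimidine (TOP) motif. Through this motif the kinase mTOR and the RNA-binding protein LARP1 are known to set how much of these mRNAs is on polysomes and how much is stored free of ribosomes.

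The start of the mRNA is shown because the TOP motif lies there. A start was counted as TOP when its first base was C and at least 4 pyrimidines (C or T) followed, read on the gene's own strand. At any RefSeq start (GRCh38.p14), 28 of the 38 members with an entry, 73.7%, met this, against 7.84% of 8099 protein-coding genes of the compared loci and 6.24% of all 15843 in the table. The start is not particular to these members. Among genes with an entry, 76.0% of 25 small-subunit genes and 91.7% of 12 other mRNAs known for the motif met the rule. RPL5, RPL7, RPL8, RPL23, RPL23A, RPL30 and RPL37 had no entry. The lines below give 15 bases before and 15 bases from the annotated start, with a pyrimidine run from the first base in capitals where it meets this rule, for the stalk proteins, for members named below for an extreme or a changing efficiency, and, in the last 2 lines, for 2 that do not meet it.
RPLP0, chr12:120201097-120201126, minus strand: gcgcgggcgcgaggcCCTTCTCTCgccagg
RPLP1, chr15:69452803-69452832, plus strand: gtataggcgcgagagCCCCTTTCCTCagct
RPLP2, chr11:809952-809981, plus strand: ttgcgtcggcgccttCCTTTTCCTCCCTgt
RPL12, chr9:127451392-127451421, minus strand: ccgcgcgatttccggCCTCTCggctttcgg
RPL26, chr17:8383179-8383208, minus strand: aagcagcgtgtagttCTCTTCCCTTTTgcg
RPL41, chr12:56116618-56116647, plus strand: cggaacttcgcctttCTCTCggccttagcg
RPL13A, chr19:49487593-49487622, plus strand: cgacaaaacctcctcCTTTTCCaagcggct
RPL14, chr3:40457324-40457353, plus strand: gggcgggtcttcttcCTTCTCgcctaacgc
RPL3, chr22:39319609-39319638, minus strand: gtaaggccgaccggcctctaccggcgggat
RPL32, chr3:12841551-12841580, minus strand: gggttacgacccatcagcccttgcgcgcca
The run was 13 bases in RPLP2, 12 in RPL26, 11 in RPLP1 and 5 in RPL41. The table holds annotated starts, and the starts used in U87MG were not measured here, so a line without capitals says only that this annotated start does not meet the rule. RPL3 begins with a run of 4 pyrimidines, 1 base short of it, and RPL32 with a purine.

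Relative depth, estimated from the smallest steps of low values, ran from 0.626 (the hypoxia with acidosis monosome library) to 2.53 (polysome library of normoxia with acidosis) times that of the normoxia pH 7.4 monosome library, and the number of reads is unknown. The summed FPKM was 2164040 in the first of these and 372405 in the other, while the median of the compared loci stayed between 5.61 and 6.46 FPKM in all 12 libraries. FPKM is relative to its library, so the amount of mRNA per cell was not measured, and fewer cells and less RNA per cell cannot be told apart.

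The median member was higher in the monosome and lower in the polysome fraction in each stress than in normoxia at pH 7.4. The median monosome level was 10180 FPKM in hypoxia with acidosis, 6234 FPKM in hypoxia at pH 7.4, 4788 FPKM in normoxia with acidosis and 1772 FPKM in normoxia at pH 7.4. The median polysome level ran the other way, at 413 FPKM in hypoxia with acidosis, 433 FPKM in hypoxia at pH 7.4, 484 FPKM in normoxia with acidosis and 711 FPKM in normoxia at pH 7.4. The oligosome median was 2207 FPKM in hypoxia with acidosis, 1103 FPKM in hypoxia at pH 7.4, 1595 FPKM in normoxia with acidosis and 1042 FPKM in normoxia at pH 7.4. In the monosome fraction 37 of 43 members had the order of these medians, hypoxia with acidosis highest, then hypoxia at pH 7.4, normoxia with acidosis and normoxia at pH 7.4, as did 10.7% of the compared loci. The exceptions were RPL3, RPL4, RPL9, RPL13A, RPL38 and RPLP0.

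**Figure D1:**
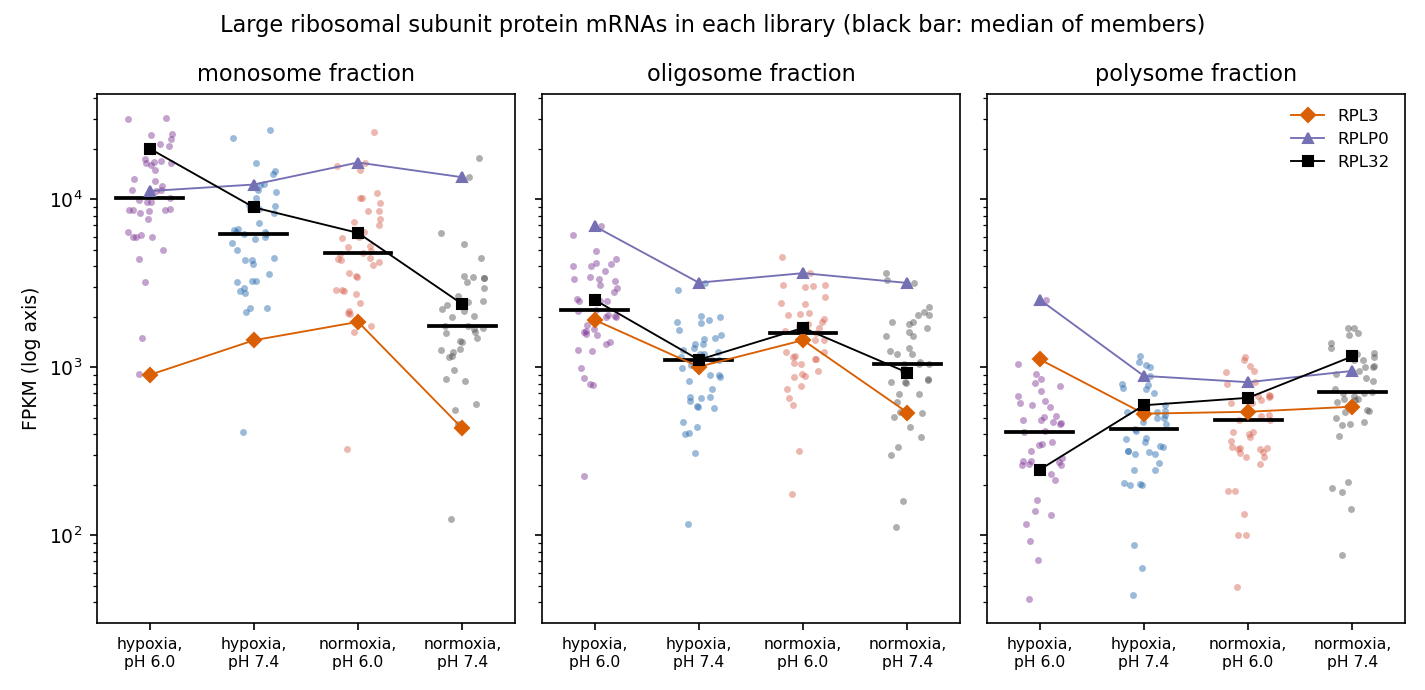
FPKM (log axis) of the 43 members in each of the 12 libraries, with 1 panel per fraction and the 4 conditions side by side. Points are members, black bars are medians, and lines join RPL3, RPLP0 and RPL32. In the monosome fraction the median lies at 10180 FPKM in hypoxia with acidosis and at 1772 FPKM in normoxia at pH 7.4, and RPLP0 stays flat there while RPL32 does not.

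Summed over the members, their mRNAs made up 24.3% of the monosome FPKM in hypoxia with acidosis, 25.5% in hypoxia at pH 7.4, 23.4% in normoxia with acidosis and 12.6% in normoxia at pH 7.4. Of the polysome FPKM they made up 4.06% in hypoxia with acidosis, 4.48% in hypoxia at pH 7.4, 5.83% in normoxia with acidosis and 7.75% in normoxia at pH 7.4. The monosome libraries were also the shallowest of their conditions. Depth and composition moved with the conditions, and their part in the result was not tested.

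For translation efficiency (TE), 1 was added to the polysome and to the monosome FPKM, and TE is the log2 of their quotient, polysome on top. The quotient itself is called the TE ratio. The members' median TE ratio was 0.0335 in hypoxia with acidosis, 0.0684 in hypoxia at pH 7.4, 0.0785 in normoxia with acidosis and 0.371 in normoxia at pH 7.4. Over all compared loci it was 1.06 in hypoxia with acidosis, 1.09 in hypoxia at pH 7.4, 1.12 in normoxia with acidosis and 1.16 in normoxia at pH 7.4. The median member thus lay below the median locus in each condition, unstressed cells included. TE was highest in normoxia at pH 7.4 for 42 of 43 members, RPLP0 being the exception, against 26.0% of the compared loci. It was lowest in hypoxia with acidosis for 36 members, against 35.1% of the compared loci.

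**Figure D2:**
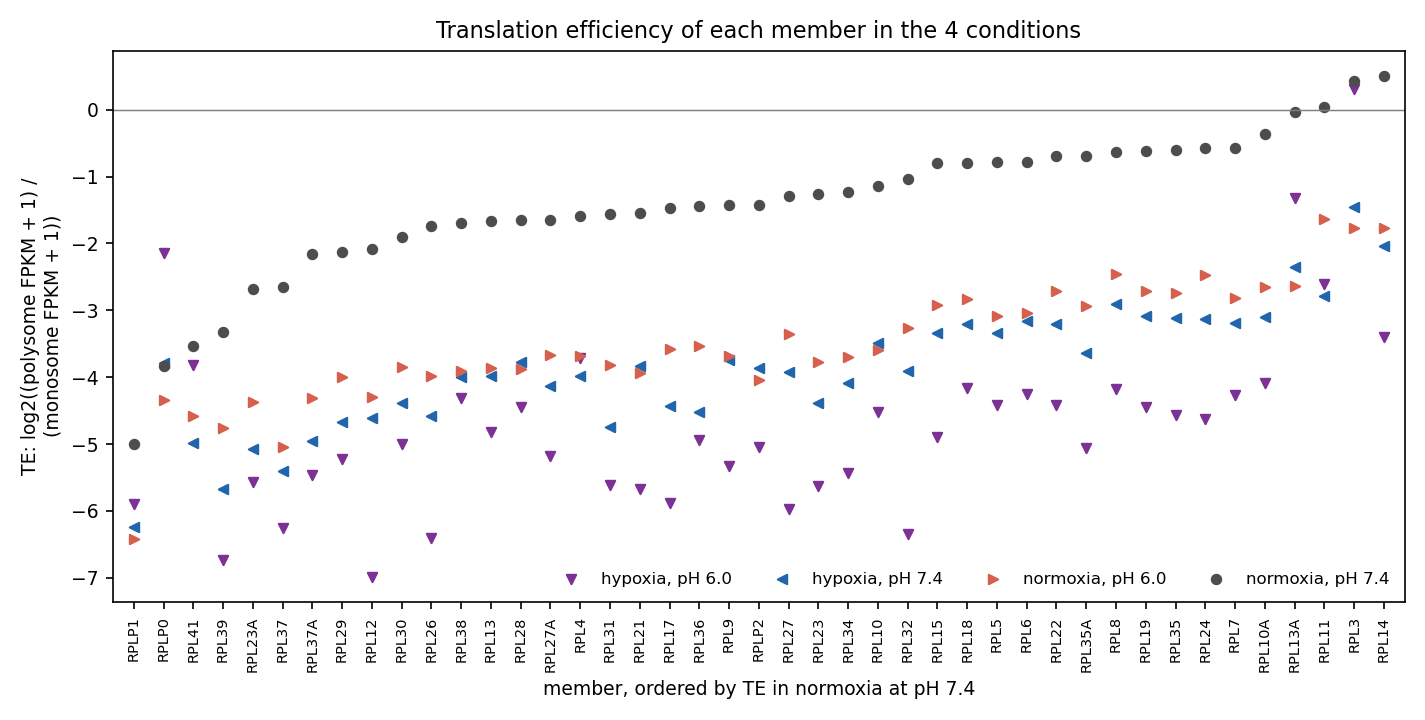
Log2 TE of each of the 43 members in the 4 conditions, with members ordered along the horizontal axis by their value in normoxia at pH 7.4. Dark circles (normoxia at pH 7.4) lie above the other 3 marks in 42 columns, and the downward triangles of hypoxia with acidosis are lowest in 36.

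Changes between 2 conditions were centred: the median over the compared loci was subtracted from each locus. Acidosis was read in 2 pairs that share no library, normoxia with acidosis against normoxia at pH 7.4 and hypoxia with acidosis against hypoxia at pH 7.4, and hypoxia in 2 likewise, at pH 7.4 and at pH 6.0. A TE was called lower or higher at 1.5-fold in both pairs, and hypoxia with acidosis against normoxia at pH 7.4 was called at 1.5-fold in that comparison alone. The comparisons for acidosis, for hypoxia and for both stresses share libraries, so they are not independent of each other.

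With acidosis, TE fell in 31 of 43 members, where 6.67% of the compared loci were called lower, and 0 members were called higher, against 5.72%. The median TE change of the members was -2.15 (4.44-fold lower) in normoxia and -1.06 (2.08-fold lower) in hypoxia, both on the log2 scale. In normoxia 42 members passed 1.5-fold in the lower direction, all but RPLP0, against 16.8% of the compared loci. In hypoxia 31 did so, against 28.3%, and 4 passed in the higher direction, RPL3, RPL13A, RPL41 and RPLP0, against 27.0%. The members' changes spanned -2.57 to -0.47 in normoxia and -2.42 to 1.77 in hypoxia.

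With hypoxia, TE fell in 35 of 43 members, where 10.1% of the compared loci were called lower, and 0 members were called higher, against 8.79%. The median TE change was -2.41 (5.31-fold lower) at pH 7.4 and -1.40 (2.63-fold lower) at pH 6.0. RPL3, RPL4, RPL13A, RPL28, RPL38, RPL41, RPLP0 and RPLP1 were not called. At pH 7.4 the lower direction was passed by 42 members, again all but RPLP0, against 21.4% of the compared loci. At pH 6.0 it was passed by 35 members, against 29.0%, and the higher direction by RPL3, RPL13A, RPL41 and RPLP0, 4 members against 27.4%.

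In hypoxia with acidosis against normoxia at pH 7.4, TE fell in 40 of 43 members, against 29.8% of the compared loci, and rose in 1, RPLP0, against 27.8%. The median TE change was -3.55 (11.7-fold lower). RPL3 and RPL41 passed in neither direction. Loci of every kind passed often in this comparison, and the count of members is to be read beside that background.

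**Figure D3:**
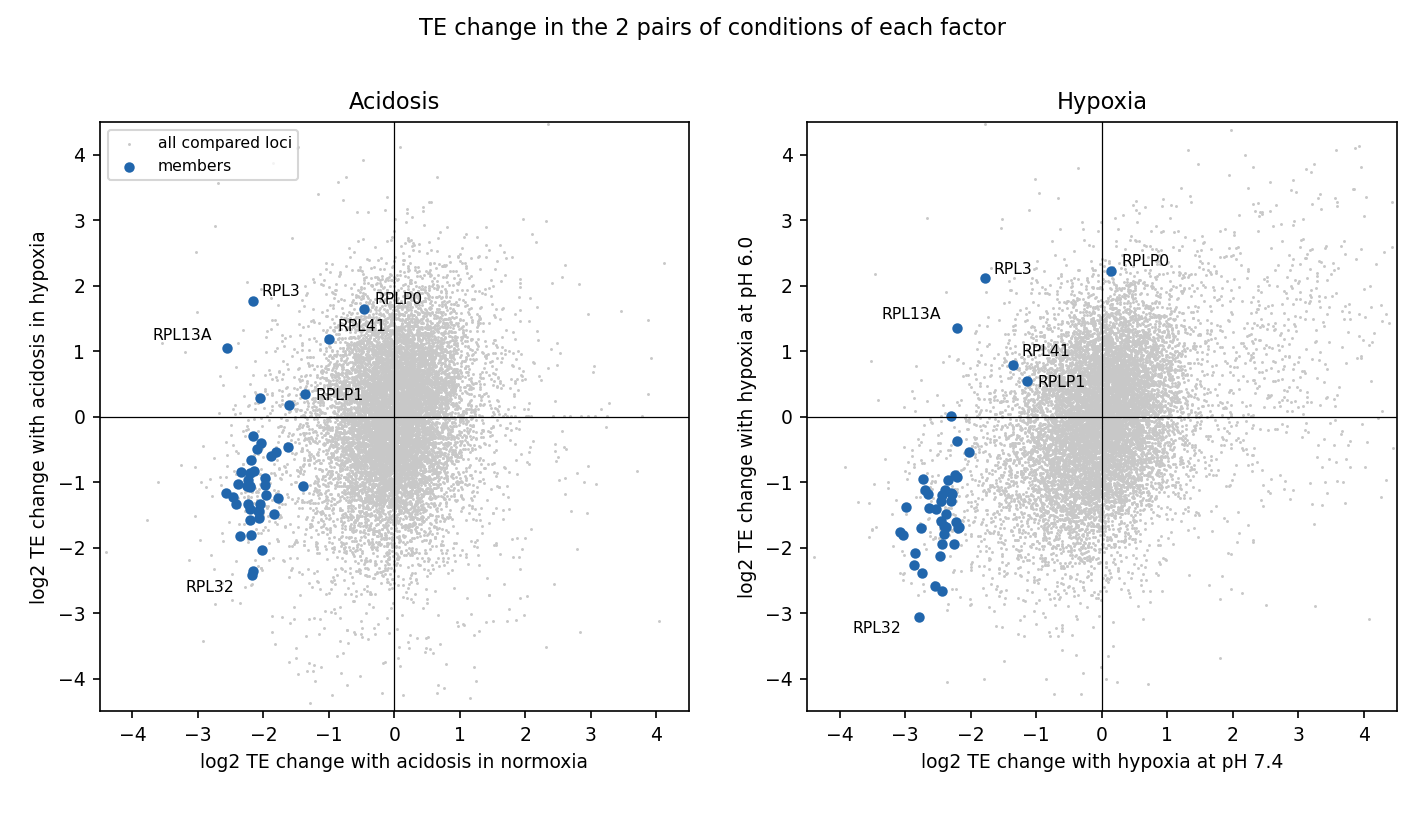
Log2 TE change of the 43 members (blue) and the 12197 compared loci (grey) in the 2 pairs of each factor: acidosis in normoxia against acidosis in hypoxia on the left, hypoxia at pH 7.4 against hypoxia at pH 6.0 on the right. Axes end at 4.5, beyond which lie 46 loci on the left and 73 on the right. Most members sit at the lower left. RPL3, RPL13A and RPL41 sit at the upper left in both panels, as do RPL4 and RPLP1 with smaller rises.

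The fractions behind these ratios changed by unequal amounts. Monosome FPKM rose by at least 1.5-fold in both pairs in 27 members with acidosis, against 7.63% of the compared loci, and in 35 with hypoxia, against 11.1%. In hypoxia with acidosis against normoxia at pH 7.4 it rose in 42, all but RPLP0, against 31.3%. Polysome FPKM fell in 8 members with acidosis, against 4.26%, in 12 with hypoxia, against 6.76%, and in 34 in the comparison of both stresses, against 24.3%. The 8 with acidosis were RPL12, RPL21, RPL26, RPL27, RPL32, RPL34, RPL35 and RPLP2. In the comparison of both stresses RPL3, RPL41 and RPLP0 had higher polysome FPKM, 3 members against 26.9%.

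The median log2 change of the members in hypoxia with acidosis against normoxia at pH 7.4 was 2.42 in the monosome fraction (5.35-fold), 1.06 in the oligosome fraction and -1.01 in the polysome fraction (2.01-fold lower). With acidosis in normoxia these medians were 1.40, 0.58 and -0.67, and with hypoxia at pH 7.4 they were 1.67, 0.06 and -0.81. The oligosome median therefore moved little with hypoxia alone, while single members ranged from -0.94 to 1.00 there. With acidosis in hypoxia all 43 members passed 1.5-fold in the higher direction there, against 23.4% of the compared loci, with a median change of 1.02.

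Each library's FPKM was also multiplied by the authors' RNA factor to estimate where the mRNA of a member lay. The median polysome share over members was 6.94% in hypoxia with acidosis, 13.2% in hypoxia at pH 7.4, 14.9% in normoxia with acidosis and 39.6% in normoxia at pH 7.4. For all compared loci the median share was 57.05% in hypoxia with acidosis, 48.6% in hypoxia at pH 7.4, 47.3% in normoxia with acidosis and 52.4% in normoxia at pH 7.4. The median monosome share of the members was 75.8% in hypoxia with acidosis, 63.5% in hypoxia at pH 7.4, 35.7% in normoxia with acidosis and 25.8% in normoxia at pH 7.4. The median oligosome share was largest in normoxia with acidosis, where the factor of the oligosome fraction was 4.47 times that of its monosome fraction, against 2.46 times in normoxia at pH 7.4.

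Steady-state mRNA was read from all 3 fractions, as a mean FPKM weighted by those factors (log2, after adding 1), and called at 2-fold in each pair with the same direction in each fraction. No member was called with acidosis, where 1.22% of the compared loci were called higher and 0.238% lower, and none with hypoxia, where 2.16% were called higher and 0.918% lower. In hypoxia with acidosis against normoxia at pH 7.4, RPL3 alone was called higher, against 11.9%, and 0 members lower, against 12.5%. By fold alone, with no demand on direction, 39 of 43 passed in that comparison, against 14.6%. The polysome change was below 0 in 39 of 43 members there, while centring puts the median of the compared loci at 0. The median change was 0.40 with acidosis in normoxia, 0.76 with acidosis in hypoxia, 0.68 with hypoxia at pH 7.4, 1.06 with hypoxia at pH 6.0 and 1.45 with both. RPL10 had the largest change with hypoxia at pH 7.4, 1.41, and was the 1 member that passed by fold alone in both hypoxia pairs, against 2.56%.

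The stalk that draws elongation factors to the ribosome is built on RPLP0, which carries dimers of RPLP1 and RPLP2, with RPL12 at its base. RPLP0 had 11214, 6925 and 2535 FPKM in the monosome, oligosome and polysome libraries of hypoxia with acidosis, and 12260, 3195 and 890 FPKM in hypoxia at pH 7.4. It had 16578, 3640 and 817 FPKM in normoxia with acidosis and 13549, 3182 and 953 FPKM in normoxia at pH 7.4. Its monosome level was high in all 4 conditions, and its polysome level in hypoxia with acidosis stood above the other 3. The TE change was 1.65 with acidosis in hypoxia and 2.23 with hypoxia at pH 6.0, against -0.47 with acidosis in normoxia and 0.14 with hypoxia at pH 7.4.

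RPLP1 was the most abundant member, with a mean of 9208 FPKM, and had the lowest TE in normoxia at pH 7.4. In the monosome library it had 30700 FPKM in hypoxia with acidosis, 25728 FPKM in hypoxia at pH 7.4, 25157 FPKM in normoxia with acidosis and 17704 FPKM in normoxia at pH 7.4. The polysome library held 515 FPKM in hypoxia with acidosis, 340 FPKM in hypoxia at pH 7.4, 294 FPKM in normoxia with acidosis and 550 FPKM in normoxia at pH 7.4. Its TE ratio was thus already 0.0311 in normoxia at pH 7.4, and its TE change was 0.35 with acidosis in hypoxia and -1.36 with acidosis in normoxia.

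RPLP2, its partner in the dimer, started from a TE ratio of 0.371 in normoxia at pH 7.4 and had 0.0304 in hypoxia with acidosis, 0.0684 in hypoxia at pH 7.4 and 0.0607 in normoxia with acidosis. Its monosome FPKM was 16650 in hypoxia with acidosis, 11434 in hypoxia at pH 7.4, 10186 in normoxia with acidosis and 3244 in normoxia at pH 7.4. RPL12 showed a wider split. It had 16873, 1384 and 133 FPKM in the 3 fractions of hypoxia with acidosis, from monosome to polysome, and 6002, 664 and 245 FPKM in hypoxia at pH 7.4. The same fractions held 5253, 1116 and 267 FPKM in normoxia with acidosis and 2019, 693 and 476 FPKM in normoxia at pH 7.4. Its TE in hypoxia with acidosis, a ratio of 0.00792, was the lowest of the 43 members, and 89.7% of its mRNA lay in the monosome fraction there. The 4 stalk mRNAs therefore ranged from a TE change of 1.74 (RPLP0) to -4.84 (RPL12) in hypoxia with acidosis against normoxia at pH 7.4.

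RPL5 and RPL11 enter the ribosome together with the 5S RNA and, outside it, are known to bind and inhibit MDM2, the ubiquitin ligase of p53. RPL5 had 5950 FPKM in the monosome and 278 FPKM in the polysome library of hypoxia with acidosis, against 859 and 497 FPKM in normoxia at pH 7.4. With hypoxia at pH 7.4 it had 3243 and 319 FPKM in these 2 fractions, and with acidosis in normoxia 2880 and 338 FPKM. RPL11 had 6424 and 1048 FPKM in hypoxia with acidosis, 5504 and 798 FPKM in hypoxia at pH 7.4, 2891 and 933 FPKM in normoxia with acidosis, and 1276 and 1308 FPKM in normoxia at pH 7.4. RPL11 had more of its mRNA on polysomes than RPL5 in hypoxia with acidosis, 20.7% against 9.35%. In hypoxia at pH 7.4 the shares were 19.4% and 17.8%, and in normoxia with acidosis 24.9% and 21.1%. In normoxia at pH 7.4 the order was reversed, at 48.2% for RPL11 and 52.8% for RPL5. With hypoxia the TE change of RPL11 was -2.73 at pH 7.4 and -0.95 at pH 6.0, and that of RPL5 was -2.46 and -1.29. The TE change of RPL11 with acidosis was -1.62 in normoxia and 0.18 in hypoxia, and that of RPL5 was -2.25 and -1.06.

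At the catalytic centre sit RPL3, RPL8 and RPL10. RPL3 had 902, 1917 and 1118 FPKM in the monosome, oligosome and polysome libraries of hypoxia with acidosis, and 1450, 1009 and 530 FPKM in hypoxia at pH 7.4. In normoxia with acidosis it had 1867, 1453 and 544 FPKM, and in normoxia at pH 7.4 433, 539 and 584 FPKM. Its monosome level was higher in each single stress than with both stresses together, and its polysome level was highest with both. TE was 0.31 in hypoxia with acidosis, close to the 0.43 of normoxia at pH 7.4, and -1.45 in hypoxia at pH 7.4 and -1.78 in normoxia with acidosis. It was the member with the highest TE in hypoxia with acidosis, and the polysome share there was 49.8%, against 54.4% in normoxia at pH 7.4.

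RPL10, the last of the catalytic-centre proteins to join the subunit, was among the 3 least abundant members, with a mean of 821 FPKM. It had 3219 FPKM in the monosome and 140 FPKM in the polysome library of hypoxia with acidosis, against 460 and 207 FPKM in normoxia at pH 7.4. In hypoxia at pH 7.4 the same libraries held 2270 and 202 FPKM, and in normoxia with acidosis 1632 and 135 FPKM. Its TE change was close to the median of the members, at -3.32 with both stresses. RPL8 lay near it, at -3.48.

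**Figure D4:**
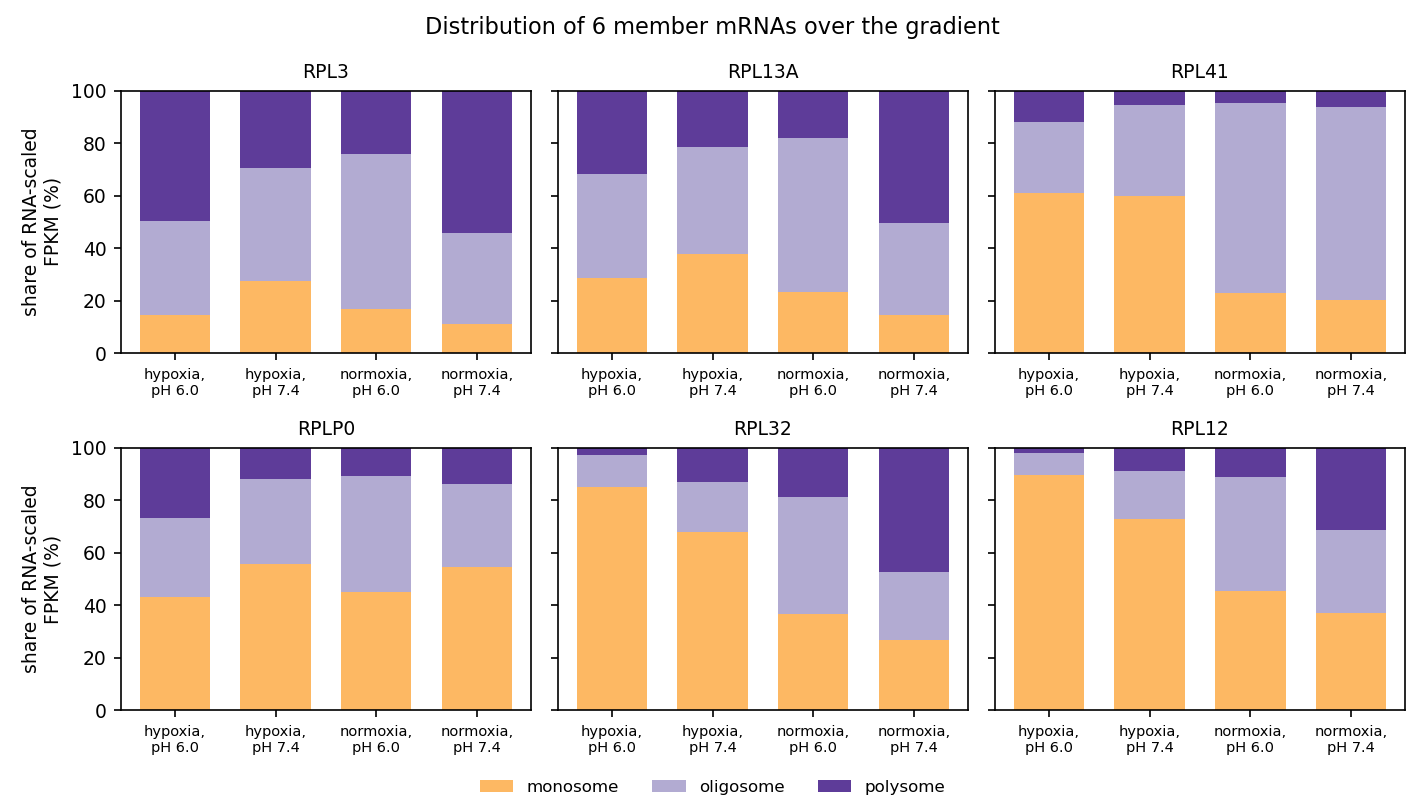
Share of RNA-scaled FPKM (percent) in the monosome, oligosome and polysome fraction for 6 members in the 4 conditions, as stacked bars that sum to 100. RPL3, RPL13A, RPL41 and RPLP0 have a larger polysome share in hypoxia with acidosis than in either single stress. RPL41 lies mostly in the oligosome fraction in both normoxic conditions, and RPL32 and RPL12 lie mostly in the monosome fraction in hypoxia with acidosis.

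Proteins that line the exit tunnel or ring its mouth were RPL4, RPL17, RPL19, RPL22, RPL23A, RPL26, RPL31, RPL35 and RPL39. With acidosis 7 of these 9 were called lower in TE, with hypoxia 8, and with both stresses all 9, beside 6.67%, 10.1% and 29.8% of the compared loci and 72.1%, 81.4% and 93.0% of all 43 members. RPL4, whose long loop reaches into the tunnel, had 10177 FPKM in the hypoxia with acidosis monosome library, 8246 FPKM in hypoxia at pH 7.4, 8563 FPKM in normoxia with acidosis and 2497 FPKM in normoxia at pH 7.4. Its polysome level was 777 FPKM in hypoxia with acidosis, 521 FPKM in hypoxia at pH 7.4, 663 FPKM in normoxia with acidosis and 831 FPKM in normoxia at pH 7.4. The 3 stressed conditions lay close together in TE, from -3.98 to -3.69, so a second stress added little: the change was 0.01 with hypoxia at pH 6.0 and -2.30 at pH 7.4.

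RPL26, which sits at the tunnel mouth and is also known to bind the p53 mRNA, went further down. It had 24595 and 290 FPKM in the monosome and polysome libraries of hypoxia with acidosis, 11097 and 464 FPKM in hypoxia at pH 7.4, 7677 and 487 FPKM in normoxia with acidosis, and 3420 and 1025 FPKM in normoxia at pH 7.4. Its TE change was -2.19 with acidosis in normoxia, -1.81 with acidosis in hypoxia, -2.75 with hypoxia at pH 7.4 and -2.39 with hypoxia at pH 6.0. RPL17, a protein by the exit, had a mean TE change of -2.57 with hypoxia, and its polysome level was 162 FPKM in hypoxia with acidosis against 463 FPKM in normoxia at pH 7.4. RPL17 and RPL26 lie in loci that name 3 and 2 other genes, so part of these levels can belong to those.

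RPL22, in a locus that names 1 other gene too, was the least abundant member. It had 917 FPKM in the hypoxia with acidosis monosome library and 126 FPKM in that of normoxia at pH 7.4. Its TE change with both stresses was -3.66. RPL39, a 51-residue protein of the tunnel wall, had 7686, 781 and 71.2 FPKM in hypoxia with acidosis and 1436, 803 and 143 FPKM in normoxia at pH 7.4. Its oligosome level was the only one of the 43 that was highest in normoxia at pH 7.4 and not in hypoxia with acidosis. RPL23, which binds MDM2 as RPL5 and RPL11 do, changed by -4.31 in TE with both stresses, with 231 FPKM in the polysome library of hypoxia with acidosis and 709 FPKM in that of normoxia at pH 7.4.

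RPL41, the smallest member with 25 residues, had the largest oligosome share of the members in both normoxic conditions. Its oligosome level was 3361 FPKM in hypoxia with acidosis, 1670 FPKM in hypoxia at pH 7.4, 3105 FPKM in normoxia with acidosis and 3333 FPKM in normoxia at pH 7.4. The polysome library held 611 FPKM in hypoxia with acidosis, 206 FPKM in hypoxia at pH 7.4, 184 FPKM in normoxia with acidosis and 193 FPKM in normoxia at pH 7.4. The monosome level was 8599 FPKM in hypoxia with acidosis, 6548 FPKM in hypoxia at pH 7.4, 4403 FPKM in normoxia with acidosis and 2231 FPKM in normoxia at pH 7.4. In both normoxic conditions the oligosome fraction held most of its mRNA, 72.3% with acidosis and 73.7% at pH 7.4, and its polysome level with both stresses was above that of the other 3 conditions.

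RPL13A is known in human monocytes also as part of a complex that silences inflammatory mRNAs after it leaves the ribosome. Its TE changed in the same direction as that of RPL3 in each pair of acidosis and of hypoxia. It had 1487, 1792 and 597 FPKM from monosome to polysome in hypoxia with acidosis, and 2144, 1040 and 419 FPKM in hypoxia at pH 7.4. In normoxia with acidosis the values were 2068, 1176 and 331 FPKM, and in normoxia at pH 7.4 557, 546 and 541 FPKM. Its TE change was -2.55 with acidosis in normoxia and 1.05 with acidosis in hypoxia. With both stresses RPL13A changed by -1.22 and was called lower, while RPL3 changed by -0.07 and was not. The RPL13A locus names 4 other genes. RPL38, tied in mice to the translation of Hox mRNAs, had a TE change of -2.16 with acidosis in normoxia and -0.30 in hypoxia, with a polysome level of 488 FPKM in hypoxia with acidosis, 360 FPKM in hypoxia at pH 7.4, 400 FPKM in normoxia with acidosis and 673 FPKM in normoxia at pH 7.4.

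RPL32 had the lowest mean TE change of the members for acidosis, hypoxia and both stresses. It had 20085, 2525 and 246 FPKM from monosome to polysome in hypoxia with acidosis, and 8966, 1110 and 595 FPKM in hypoxia at pH 7.4. Normoxia with acidosis gave 6317, 1718 and 659 FPKM, and normoxia at pH 7.4 gave 2380, 931 and 1163 FPKM. The polysome level stepped down and the monosome level up with each added stress, to a TE change of -5.26 with both. For acidosis RPL12 came next, with a mean change of -2.26. RPL21 and RPL27 came after it, with mean changes of -2.08 and -2.03, and had polysome levels of 117 and 261 FPKM in hypoxia with acidosis against 393 and 1222 FPKM in normoxia at pH 7.4.

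Among the abundant members, RPL37A had 29895 and 678 FPKM in the monosome and polysome libraries of hypoxia with acidosis, against 6288 and 1406 FPKM in normoxia at pH 7.4. RPL13 had 24121 and 853 FPKM in hypoxia with acidosis, against 5422 and 1705 FPKM in normoxia at pH 7.4. RPL14 had the highest TE in normoxia at pH 7.4, a ratio of 1.42 with 66.6% of its mRNA in the polysome fraction. Its ratio was 0.0952 in hypoxia with acidosis, 0.242 in hypoxia at pH 7.4 and 0.292 in normoxia with acidosis, so the efficiency of normoxia at pH 7.4 was nearly kept by RPL3 but not by RPL14 under both stresses.

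The hypoxia change in TE at pH 6.0 minus that at pH 7.4 was positive in most members, with a median of 1.14. By 1.5-fold it was higher in 34 of 43 members, against 28.3% of the compared loci, and lower in 0, against 29.6%. It was largest in RPL3 (3.90), RPL13A (3.58), RPL4 (2.31), RPL41 (2.15) and RPLP0 (2.09), and lowest in RPL32 (-0.27). RPL8, RPL12, RPL15, RPL21, RPL24, RPL26, RPL27, RPL32 and RPL39 did not pass. Their differences reached 0.51 (RPL21), near the 0.60 of RPL17, which passed. This difference uses 1 library of each of the conditions and fractions, and it was not tested.

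Protein length separated the members. Each Pearson r in this paragraph takes the log2 of length after adding 1. Across the 43, TE and length had a Pearson r of 0.44 in hypoxia with acidosis, 0.60 in hypoxia at pH 7.4, 0.48 in normoxia with acidosis and 0.48 in normoxia at pH 7.4, with Spearman rho between 0.47 and 0.63. The 20 members under 150 residues had a median TE ratio of 0.0252 in hypoxia with acidosis and 0.328 in normoxia at pH 7.4, and the 23 longer ones 0.0470 and 0.574. The change in TE was not ordered by length, with r of -0.21 for acidosis in normoxia and 0.09 for hypoxia at pH 7.4. The change in oligosome FPKM was, with r of 0.68 for acidosis in normoxia, 0.42 for acidosis in hypoxia, 0.69 for hypoxia at pH 7.4, 0.43 for hypoxia at pH 6.0 and 0.70 for both stresses. Members are not independent points, since they share the libraries, and the 5 comparisons share libraries with each other.

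**Figure D5:**
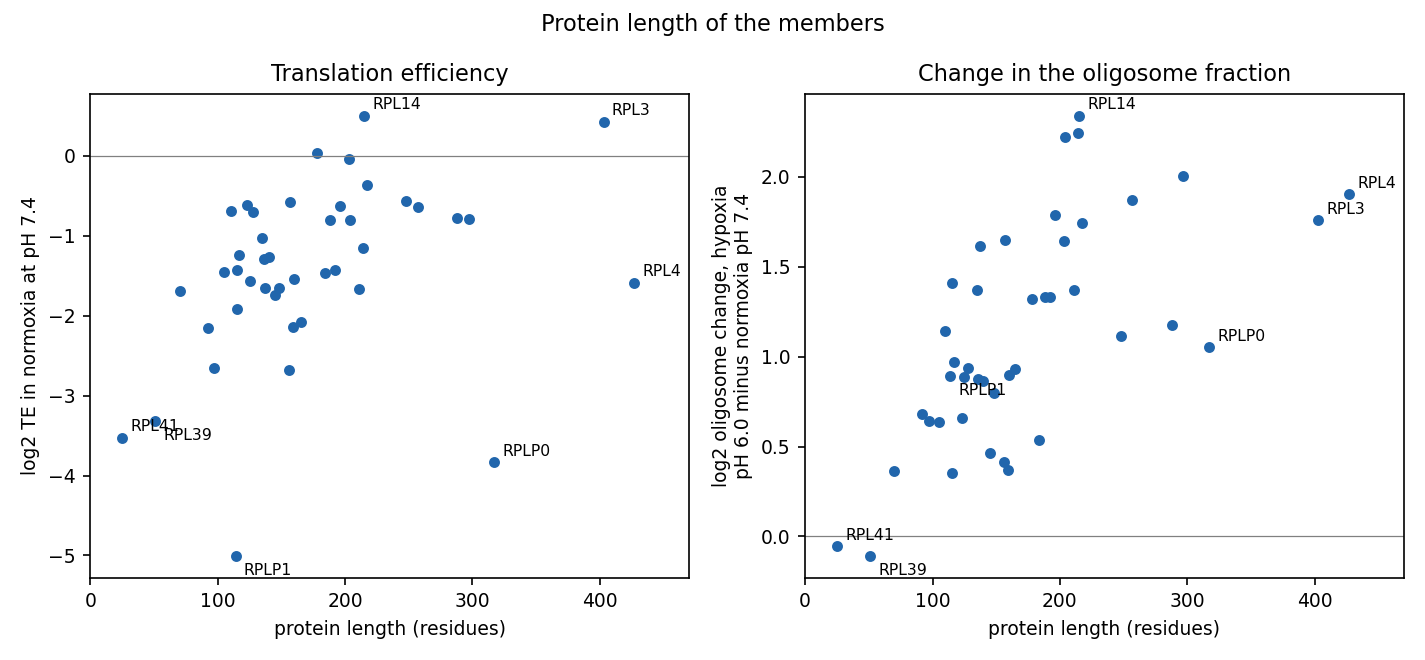
Protein length in residues of the 43 members against log2 TE in normoxia at pH 7.4 (left) and against the log2 change in oligosome FPKM in hypoxia with acidosis minus normoxia at pH 7.4 (right). Short members such as RPL39 and RPL41 lie low in both panels, RPLP0 and RPLP1 lie low on the left, and RPL14, RPL3 and RPL4 lie high on the right.

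The order of the members was closer between normoxia at pH 7.4 and each single stress than between it and hypoxia with acidosis. TE in normoxia at pH 7.4 had a Pearson r of 0.94 with TE in normoxia with acidosis, 0.87 with TE in hypoxia at pH 7.4 and 0.43 with TE in hypoxia with acidosis, across 43 members. More abundant members had lower TE, with r of -0.46 between mean FPKM (log2, after adding 1) and TE in normoxia at pH 7.4. These 2 measures share the monosome values. The 26 compared members with an annotated TOP start had a median TE change of -2.13 with acidosis in normoxia and -3.40 with both stresses. The 10 whose annotated starts do not meet the rule had -2.11 and -3.81. Since the starts used in U87MG were not measured, these groups cannot separate mRNAs with the motif from mRNAs without it. Members within snoRNA host genes (17) and the other 26 had medians of -3.48 and -3.65 with both stresses.

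Annotated pseudogenes ran from 0 for RPL28 to 91 for RPL23A, with a median of 10, and the sources used here do not say how reads that match several copies were counted. The 22 compared members with fewer than 10 pseudogenes had a median TE change of -3.46 with both stresses, and the 21 with 10 or more -3.64. For the 7 members in loci that name other genes too, the median was -3.48, and for the other 36 it was -3.55.

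Other lists place the members in the translation machinery, and each count is to be read beside the background shares given above. Of 29 compared small-subunit proteins, TE was called lower in 15 with acidosis, 18 with hypoxia and 26 with both stresses, with medians of -1.52, -1.89 and -3.36. RPSA, the laminin receptor that is also a small-subunit protein, had mean changes of 0.58 with acidosis and 0.70 with hypoxia, and RPS13 -2.16 and -2.31. Of 18 other mRNAs known to carry a TOP motif, 4, 5 and 14 were called lower with acidosis, hypoxia and both, and 3 higher with both. Among them TPT1, translationally controlled tumor protein, had a mean change of -2.17 with acidosis. PABPC1, the poly(A)-binding protein, had mean changes of 0.84 with acidosis and 1.91 with hypoxia. No gene of this list rose by more than 0.42 with acidosis in normoxia or 0.53 with hypoxia at pH 7.4. The PABPC1 means therefore rest mainly on the pairs that hold hypoxia with acidosis. EEF2, which moves the ribosome along and uses the stalk, had TE ratios of 0.865 in hypoxia with acidosis, 0.193 in hypoxia at pH 7.4, 0.186 in normoxia with acidosis and 0.423 in normoxia at pH 7.4; it was picked after its values had been seen.

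Of 46 proteins of the mitochondrial large subunit, a separate family with a TOP start in 7.14% of 42 genes, TE was called lower in 6 with acidosis, 20 with hypoxia and 39 with both stresses. The medians were -0.53, -1.05 and -1.58. Among 18 regulators of TOP mRNAs, 0, 2 and 6 were called lower with acidosis, hypoxia and both, and the medians were -0.02, -0.23 and -0.06. MTOR had a mean TE change of 0.68 with hypoxia, and the kinase gene RPS6KB1 -1.46. No list was tested against another.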

How the data were processed

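Per the labels' protocols, a stranded mRNA kit gave the 12 libraries. STAR 2.5.0, Cufflinks 2.2.1, Cuffnorm, bcl2fastq and GRCh38 appear in the submitters' processing notes, without roles. Neither annotation nor normalization is stated there. The authors deposited FPKM per assembled locus and, per the file headers, a signal equal to FPKM multiplied by an RNA concentration factor. The 12 factors were recovered from those columns (tolerance 1e-06). Another 22 columns of values were not used.

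TE, steady-state mRNA and changes were computed with Python 3.11.15, numpy 2.4.6 and pandas 2.3.3, with a pseudocount of 1 that understates changes of low loci. The calculation was checked on simulated data. Gene coordinates, snoRNAs and pseudogenes came from GENCODE 29. Depth in reads is unknown, so no counting interval is given. Members, lists, thresholds and the naming rule (4 highest and 4 lowest mean TE changes per effect, extremes of level and of TE, members of known role) were chosen with earlier results of these data known. Where a name had several loci, the one with the highest mean was used. Alternatives changed the pseudocount, filter, centring, scaling, fractions, threshold and loci.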

Additional observations from a re-analysis of the deposited data

Results flagged for a closer look

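RPL3, RPL13A and RPL41 changed in TE in opposite directions, each by more than 1.5-fold, in the 2 pairs of a factor, and these differences were not tested. The TE change of RPL3 with acidosis was -2.16 in normoxia and 1.77 in hypoxia, and with hypoxia it was -1.79 at pH 7.4 and 2.12 at pH 6.0. RPL13A changed by -2.55 and 1.05 in the same acidosis pairs and by -2.22 and 1.36 in the same hypoxia pairs. RPL41 changed by -0.998 and 1.18 with acidosis and by -1.36 and 0.793 with hypoxia.

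All of these values use the monosome and polysome libraries of hypoxia with acidosis in 1 of the 2 pairs, and its monosome library was the shallowest of the 12, at a relative depth of 0.626. Of all compared loci, 27.0% passed in the higher direction with acidosis in hypoxia. With acidosis in normoxia 16.8% passed in the lower direction and 15.5% in the higher. For hypoxia, 21.4% passed in the lower direction in the pair without acidosis and 27.4% in the higher direction in the pair with acidosis. The share of loci that passed in opposite directions in the 2 pairs was not counted. RPL3, RPL13A and RPL41 therefore cannot be set against a background of such reversals. The part of depth in the result was not tested. RPL13A lies in a locus that names 4 other genes, and RPL3 and RPL41 lie in loci of their own.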

How the results depend on the processing

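No paired analysis was possible because there is 1 library per condition and fraction and the labels give no replicate numbers, and for the same reason no library could be left out. TE was lower in 31, 35 and 40 of 43 members with acidosis, hypoxia and both stresses. With oligosome over monosome in place of polysome over monosome, 0 members were called with acidosis, 14 with hypoxia and 34 with both stresses. No share of the compared loci is given for that measure, so these counts cannot be set against a background. The median changes of acidosis, hypoxia and both stresses were then -0.243, -1.06 and -1.37, in place of -1.59, -1.93 and -3.55. With polysome over oligosome those of hypoxia and both stresses were -0.903 and -2.29. Among the 22 members with fewer than 10 pseudogenes, an alternative chosen after seeing the data, 14, 16 and 20 were called, a lower count because fewer members entered. The other alternatives kept each of the 3 TE counts within 1.5 times, and no median change reversed. For steady-state mRNA, hypoxia gave 1 member and both stresses 39 by fold alone, an alternative also chosen after seeing the data, against 0 and 1. Both stresses gave 0 with RNA scaling, 2 with fractions weighted equally and 2 with a call at 1.5-fold; the cause was not tested. RNA scaling without centring shifted the median TE difference of all compared loci by -0.39 with both stresses and by -0.73 with hypoxia at pH 6.0, and the members' median became -4.00 with both. Without RNA factors the median polysome share was 2.71% in hypoxia with acidosis, 5.66% in hypoxia at pH 7.4, 5.91% in normoxia with acidosis and 20.5% in normoxia at pH 7.4.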

Other observations

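Paralogs of the large-subunit proteins, which can take a member's place in some tissues, were compared for 6 of 7 genes. TE was called lower in 1 with acidosis (6.67% of the compared loci), 3 with hypoxia (10.1%) and 3 with both stresses (29.8%). RPL22L1, the paralog of RPL22, had 7232, 1271 and 108 FPKM from monosome to polysome in hypoxia with acidosis, and 926, 1448 and 672 FPKM in normoxia at pH 7.4. Its mean FPKM was 1433, above the 219 of RPL22 itself, whose locus names 1 other gene too. The TE change of RPL22L1 with both stresses was -5.54. RPL39L had a mean TE change of 0.63 with acidosis.

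Of 21 compared factors that assemble the large subunit, TE was called lower in 3 with acidosis, 3 with hypoxia and 11 with both stresses, against the same backgrounds. RSL24D1, whose yeast counterpart holds the place of the L24 protein in the immature subunit, had mean TE changes of -1.92 with acidosis and -1.94 with hypoxia. The GTPase gene GTPBP4 had mean changes of 0.63 and 0.83.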
